A study of Rattus norvegicus with 12 samples.

Results

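The enzymes described here build triglyceride in the fat cell and were followed through the messages of 9 genes, Gpam, Gpat3, Agpat1, Agpat2, Agpat3, Lpin1, Lpin2, Dgat1 and Dgat2. They were found by their symbols in the annotation of the array platform, where each of the 9 genes has 1 probe, out of 13337 genes named there. The RNA came from the fat pad along the epididymis (epididymal adipose tissue) of 12 rats, all males of the Sprague-Dawley strain and 40 days old, and each rat had an array of its own. Of these, 6 arrays are labelled as taken 6 h after food removal and 6 as taken from rats fed ad lib. The labels name no transgene and no drug for either group. The paper's methods give another length of time without food than the labels do, and the difference was not resolved here.

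Triglyceride is made in steps. Acyl groups are placed on glycerol phosphate by the glycerol phosphate acyltransferases (Gpam in mitochondria, Gpat3 in the endoplasmic reticulum), then by the lysophosphatidate acyltransferases (Agpat1, Agpat2, Agpat3), which gives phosphatidate. The lipins (Lpin1, Lpin2) remove the phosphate to give diacylglycerol, and Dgat1 and Dgat2, a pair of unrelated proteins, add the last acyl group. In humans loss of AGPAT2 causes a generalized lack of fat, and mice without functional Lpin1 have little adipose tissue, while in mouse liver lipin 1 also acts in the nucleus as a coactivator of fatty acid oxidation genes. Adipose tissue runs this pathway when it stores fatty acids and also when it re-esterifies part of those that lipolysis sets free.

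Among the 9 members, Lpin1 and Gpam showed the largest differences between the labels, and these went in opposite directions. Start site windows from RefSeq (build GRCr8) were matched for 7 of the 9 members, and Dgat1 and Dgat2 were not analysed here in this respect. The 250 bases before the annotated start are shown for Gpam and Lpin1. No difference in signal was computed from these sequences. The Gpam window is on chr1:264175912-264176161, minus strand, and the Lpin1 window on chr6:45108943-45109192, minus strand, each written 5′ to 3′ toward the start. Capitals mark CCAAT, or its reverse complement ATTGG.
Gpam: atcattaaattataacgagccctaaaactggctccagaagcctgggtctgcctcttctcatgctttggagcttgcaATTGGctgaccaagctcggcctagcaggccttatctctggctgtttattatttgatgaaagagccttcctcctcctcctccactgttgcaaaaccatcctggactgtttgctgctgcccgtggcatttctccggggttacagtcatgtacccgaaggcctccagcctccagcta
Lpin1: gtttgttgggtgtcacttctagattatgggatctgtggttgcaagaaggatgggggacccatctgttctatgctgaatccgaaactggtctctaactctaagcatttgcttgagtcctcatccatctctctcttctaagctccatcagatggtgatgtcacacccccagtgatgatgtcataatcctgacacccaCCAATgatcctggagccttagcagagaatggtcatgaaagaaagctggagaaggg

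Each of these windows held a single CCAAT, at bases 174 to 170 before the start in Gpam on the reverse strand and at bases 55 to 51 in Lpin1 on the forward strand. It was also in the window of Agpat1, and so in 3 of the 7 windows of members. Of 27457 gene windows of this length, 34.3% hold it on either strand. The E box CACGTG and the sterol element TCACNCCAC, which bind factors of lipid synthesis, were in none of the 7 windows of members, against 5.8% and 1.0% of all windows, on both strands. A match or its absence says only whether these letters lie in the window. Lpin1 had 47.2% G and C and Gpam 51.2%, near the median of 52.0% of all windows, while Agpat2 had 78.4% with 6 matches to the GC box GGGCGG, which is found in 32.4% of all windows.

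On the chip each probe gives a fluorescence signal, read as the mean over many beads, and a detection p-value against negative control probes. The share of the 22523 probes with a detection p under 0.05 was 51.25 to 59.64% on the 12 arrays. After background correction and quantile normalization, log2 signals of 12196 probes detected on at least 6 arrays were compared with limma, and a difference was called where the p-value adjusted by Benjamini-Hochberg over all these probes was under 0.05. Of the adipocyte markers, 9 of 9 measured were detected on every array. Epididymis marker probes lay more than 2 log2 units above their median on food removed replicate 3 (12 of 18 probes), replicate 4 (3) and replicate 5 (3), and on ad lib replicate 6 (4), and the members, the pairs of members and the listed genes that were called were also compared without these 4 arrays, an alternative chosen after seeing the data. Food removed replicate 4 was nearest in its whole profile to ad lib replicate 1 (Pearson r = 0.9907 across probes, which are not independent replicates). Food removed replicate 5 and ad lib replicate 6 were likewise nearest to each other (r = 0.9844). The mean raw signal of an array ran from 418 (ad lib replicate 4) to 1184 (food removed replicate 4), with ad lib replicate 1 second highest at 1130. Nothing in the labels ties these arrays to a separate batch.

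The arrays labelled food removed had lower signals of Pdk4, a kinase that shuts down pyruvate oxidation, and of Angptl4, an inhibitor of lipoprotein lipase. The paper, from these arrays, lists both genes among those that rose most when food was removed. Angptl4 message also rose in the paper's separate food withdrawal experiment, measured by PCR. The direction here is the opposite, so each group goes by its label. Signed differences are those of the food removed label minus the ad lib label. Pdk4 differed by -2.95 (SE 0.27, adjusted p = 0.000237 from limma) and Angptl4 by -2.08 (SE 0.27, adjusted p = 0.001107). For both genes all 6 arrays labelled food removed lay below all 6 labelled ad lib, food removed replicate 4 coming nearest to the ad lib arrays. The direction of every difference below depends on the labels being right, which the files do not settle.

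Of the 9 members, 1 was called, Lpin1, which was lower in the arrays labelled food removed. None was called higher by limma, and 8 did not pass. The background was 2.47% of all tested probes called, 1.42% lower and 1.05% higher. At an unadjusted p under 0.05 there were 3 members, Gpam higher and Lpin1 and Dgat1 lower, against 15.9% of all tested probes. All 9 members passed the filter on low signals. The median log2 difference of the members was 0.03, with 5 positive and 4 negative, and that of the 8583 tested genes was -0.01. The list as a whole therefore had no common direction, and the individual members are given in the order of their steps.

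**Figure D1:**
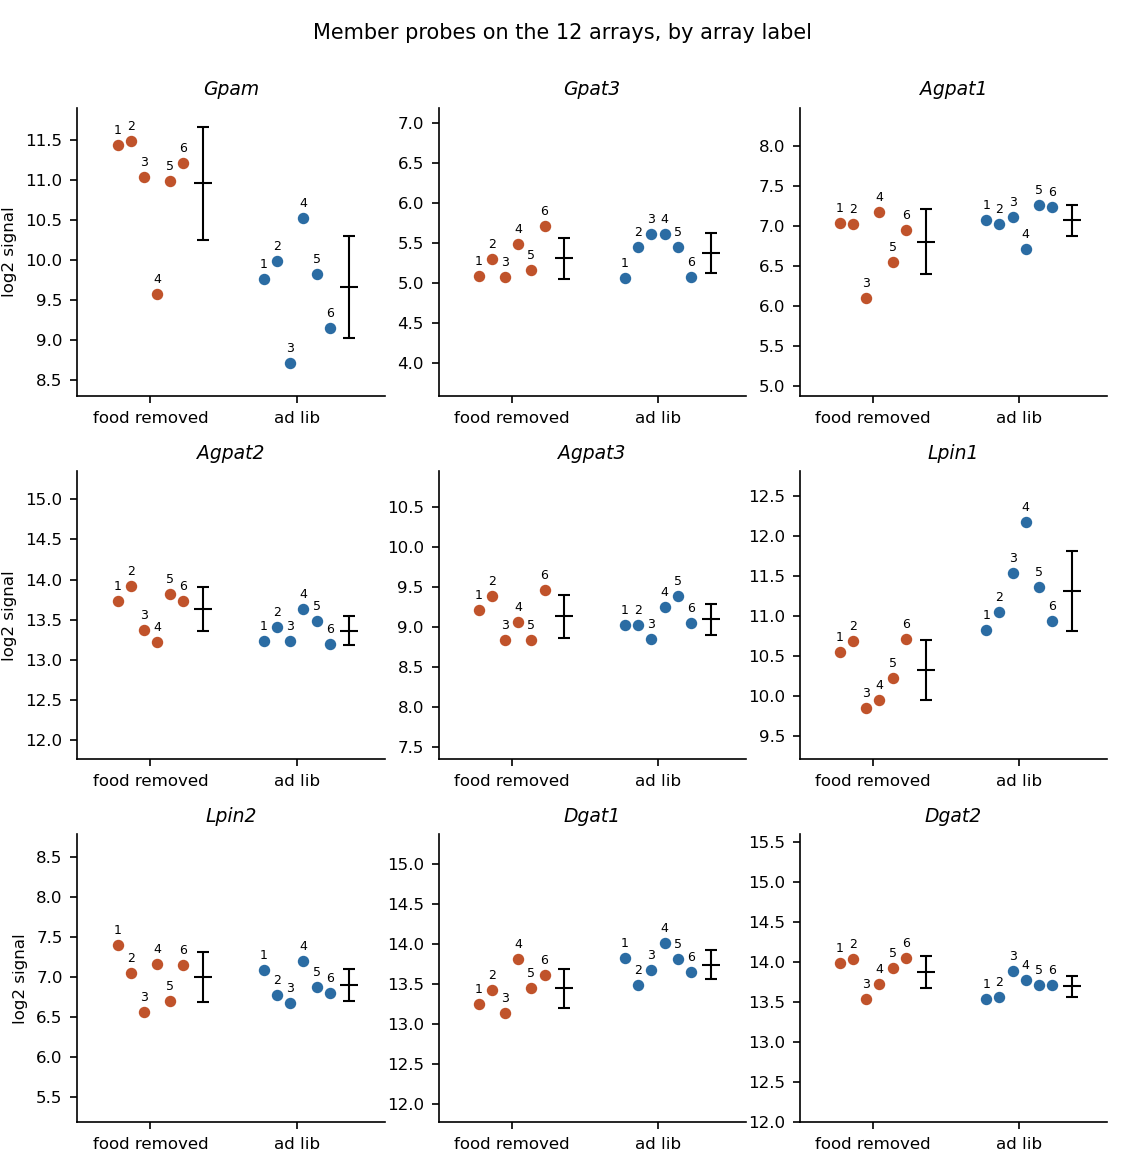
Log2 signal (vertical axis) of each member's probe on the 12 arrays, grouped by label; points carry the replicate number and the bar beside them gives the mean ± SD of 6 arrays. Every panel spans the same number of log2 units, and only in the Lpin1 panel do the 2 groups not overlap, with food removed arrays up to 10.71 and ad lib arrays from 10.82.

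The acyltransferase of the committing step, Gpam (probe ILMN_1363492), had its higher signals in the arrays labelled food removed. Log2 signals were 9.58, 11.12 and 11.49 (lowest, median and highest of 6) there and 8.71, 9.79 and 10.52 in the arrays labelled ad lib. In the first group 5 of 6 arrays, at 10.98 to 11.49, lay above every ad lib array, and food removed replicate 4, at 9.58, lay within the ad lib range. The means were 10.95 ± 0.70 (SD, n = 6) and 9.66 ± 0.64 (SD, n = 6), a difference of 1.30 (SE 0.34, 95% interval 0.57 to 2.02), or 2.46-fold. This did not pass (adjusted p = 0.0635 from limma; unadjusted p = 0.0108 in the exact two-sided permutation test over 924 assignments). Without food removed replicate 4 the difference was 1.57 and was called (adjusted p = 0.00605 from limma), and without ad lib replicate 4 it was 1.47 and was called as well (adjusted p = 0.0421). Without the 4 arrays with epididymis markers it was 1.62 (adjusted p = 0.0219). The residual spread of Gpam was larger than that of 96.4% of tested probes, although its bead standard error was small, at a median of 0.059 on the log2 scale.

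The second enzyme of this step, Gpat3 (ILMN_1372132), could hardly be measured. Its raw signal was 1.18 to 1.44 times the background level, it was detected on 11 of 12 arrays, and its bead standard error on the log2 scale (median 0.33) exceeded its SD between arrays of 0.25 in each group. Log2 signals were 5.31 ± 0.25 (SD, n = 6) in the arrays labelled food removed and 5.38 ± 0.25 in those labelled ad lib. The difference was -0.07 (95% interval -0.38 to 0.24, adjusted p = 0.870 from limma). For a probe this close to background the interval does not show whether the message changed.

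For the lysophosphatidate acyltransferases no difference was called. Agpat2 (ILMN_1371815), the isoform that human fat depends on, had log2 signals of 13.22, 13.73 and 13.92 (lowest, median and highest) in the arrays labelled food removed and 13.19, 13.32 and 13.63 in those labelled ad lib. Its difference was 0.27 (SE 0.14, 95% interval -0.03 to 0.56, adjusted p = 0.367 from limma), and the lowest arrays of the first group, replicates 3 and 4, fell among the ad lib arrays. Agpat1 (ILMN_1362181), the widely expressed isoform, went from 6.09 to 7.17 in the arrays labelled food removed and from 6.71 to 7.25 in those labelled ad lib, a difference of -0.26 (SE 0.17, 95% interval -0.64 to 0.11, adjusted p = 0.503). Its low end was food removed replicate 3, the array with most epididymis markers, without which the difference was -0.12, and without the 4 arrays with such markers it was -0.03. Agpat3 (ILMN_1356104) differed by 0.03 (SE 0.14, 95% interval -0.26 to 0.33, adjusted p = 0.941), and its sign turned when food removed replicate 2, food removed replicate 6 or ad lib replicate 3 was left out. Without the 4 arrays with epididymis markers Agpat3 differed by 0.24 (adjusted p = 0.481) and Agpat2 by 0.40 (adjusted p = 0.183).

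Lpin1 (ILMN_1376971), the phosphatidate phosphatase of adipocytes, was lower in the arrays labelled food removed. Log2 signals were 9.85, 10.39 and 10.71 (lowest, median and highest of 6) there and 10.82, 11.20 and 12.17 in the arrays labelled ad lib. All 6 arrays of the first label lay below all 6 of the second, which held for 2.5% of all tested probes, although the gap between the groups was small beside the spread within them. The means were 10.33 ± 0.38 (SD, n = 6) and 11.31 ± 0.50 (SD, n = 6). The difference was -0.98 (SE 0.23, 95% interval -1.48 to -0.49, adjusted p = 0.0383 from limma), a 1.98-fold higher signal under the ad lib label. The exact permutation test gave the smallest unadjusted p that 6 against 6 arrays allow, 0.00216. In bulk tissue, fewer cells of a type and less RNA per cell cannot be told apart.

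The call of Lpin1 was near its threshold. It was lost in 8 of 12 fits that left out 1 array (food removed replicates 1 to 5 and ad lib replicates 3 to 5), where adjusted p reached 0.0895 at most and the difference stayed between -1.08 and -0.81. The lowest Lpin1 signals were those of food removed replicates 3, 4 and 5, at 9.85, 9.94 and 10.22. These are also the arrays of this label with epididymis markers. The summed signal of these markers was 157550 on replicate 3, but 10833 on replicate 4 and 16424 on replicate 5. On the ad lib arrays it was 10505 to 16741, so only replicate 3 stood far out in the sum. Npc2, the brightest tested marker of this list (mean 13.51 under the ad lib label), weighs most in such a sum. In the mean log2 signal of the 18 probes, replicate 3 was at 10.74, replicate 4 at 6.35 and replicate 5 at 6.61. Ad lib replicate 6 was at 6.65, and the arrays without raised markers were at 5.53 to 5.81. Without the 4 arrays with epididymis markers the Lpin1 difference was -0.74 (SE 0.26, adjusted p = 0.176 from limma).

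Lpin2 (ILMN_1356179), the lipin best known from liver, was not called. Its signals were 6.56, 7.10 and 7.40 (lowest, median and highest) in the arrays labelled food removed and 6.68, 6.84 and 7.20 in those labelled ad lib. The groups overlapped almost completely, with a difference of 0.10 (SE 0.15, 95% interval -0.22 to 0.42, adjusted p = 0.810 from limma). The interval leaves out a fall of the size of Lpin1's, for a probe whose raw signal was 1.76 to 3.02 times background. The difference was 0.02 without food removed replicate 1, 0.19 without food removed replicate 3 and 0.28 without the 4 arrays with epididymis markers, and was called in none of these fits by limma.

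At the last step, Dgat1 and Dgat2 had opposite signs and neither was called. Dgat1 (ILMN_1376322) had log2 signals of 13.13, 13.43 and 13.81 (lowest, median and highest) in the arrays labelled food removed and 13.48, 13.74 and 14.00 in those labelled ad lib. In 5 of 6 arrays labelled food removed it was below the ad lib mean, with replicate 4 above it. The difference was -0.30 (SE 0.13, 95% interval -0.58 to -0.01, adjusted p = 0.289 from limma; unadjusted exact permutation p = 0.0368). Dgat2 (ILMN_1376726), which makes most triglyceride in mice, had signals of 13.54, 13.95 and 14.05 against 13.54, 13.71 and 13.89. Its difference was 0.18 (SE 0.11, 95% interval -0.07 to 0.42, adjusted p = 0.487), and it was 0.33 (adjusted p = 0.232) without the 4 arrays with epididymis markers and 0.31 (adjusted p = 0.0604) with array weights. Raw signals of Agpat2, Dgat1 and Dgat2 were 74.1 to 206 times background, and those of Agpat1 only 1.53 to 3.04 times.

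**Figure D2:**
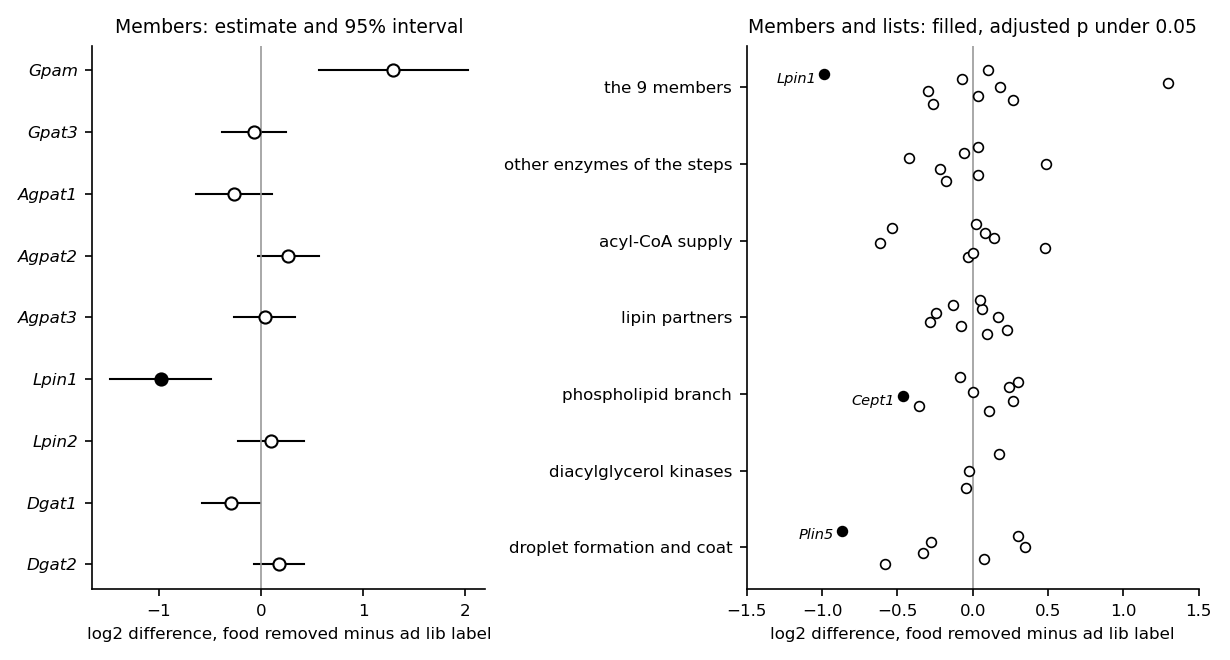
Log2 differences (horizontal axis, food removed label minus ad lib label). Left, the 9 members with limma's 95% interval; right, every tested gene of the members and of 6 related lists, filled where the adjusted p was under 0.05. Filled points are Lpin1 at -0.98, Cept1 at -0.46 and Plin5 at -0.87, all on the negative side, and Gpam at 1.30 is the open point farthest to the right.

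Enzymes of the same step were set against each other within each array, as the difference of their log2 signals, in 6 pairs (exact two-sided permutation test over arrays, Benjamini-Hochberg over the 6 pairs). Such a ratio shows unequal change and not which partner moved. The ratio of Lpin1 to Lpin2 was 2.12-fold lower under the food removed label, a log2 difference of -1.09 (SE 0.23, 95% interval -1.59 to -0.58, adjusted p = 0.0130), with no overlap between the groups. The ratio of Dgat1 to Dgat2 was 1.39-fold lower, by -0.47 (SE 0.14, 95% interval -0.79 to -0.16, adjusted p = 0.0260). Gpam to Gpat3 differed by 1.37 (SE 0.43, adjusted p = 0.0260), close to the 1.30 of Gpam alone, and since Gpat3 was barely above background this value adds nothing on Gpat3. In these last pairs food removed replicate 4 was again the array of its label that fell among the ad lib arrays.

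The 3 pairs of lysophosphatidate acyltransferases did not pass with all 12 arrays. The difference was -0.53 (95% interval -1.05 to -0.02, adjusted p = 0.0779 from the exact permutation test) for Agpat1 to Agpat2, -0.30 (95% interval -0.67 to 0.08, adjusted p = 0.108) for Agpat1 to Agpat3 and 0.23 (95% interval -0.05 to 0.52, adjusted p = 0.106) for Agpat2 to Agpat3. Without food removed replicate 4 all 3 passed (-0.69, -0.39 and 0.30, adjusted p = 0.0162, 0.0411 and 0.0182 from the exact permutation test), and without ad lib replicate 4 those with Agpat1 did (-0.66 and -0.40, adjusted p = 0.0292 and 0.0312). The call of Lpin1 to Lpin2 held in all 12 fits without 1 array, with differences of -1.22 to -0.97, and those of Gpam to Gpat3 and Dgat1 to Dgat2 were lost without food removed replicate 1, 2, 3 or 5 (adjusted p = 0.0563 each from the exact permutation test), where the differences were 1.23, 1.26, 1.31 and 1.33 for Gpam to Gpat3 and -0.41, -0.44, -0.48 and -0.47 for Dgat1 to Dgat2.

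**Figure D3:**
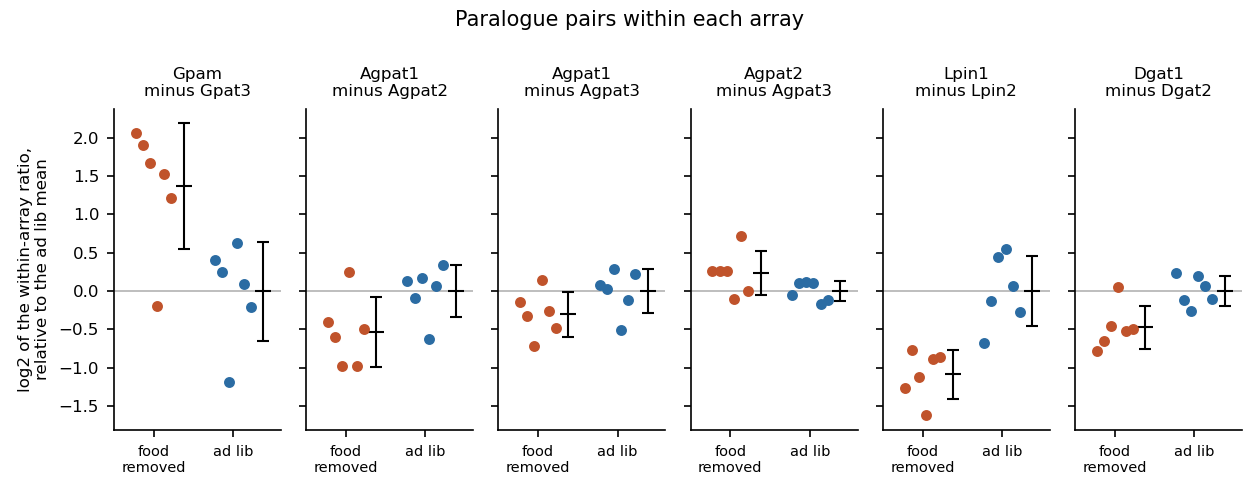
Within-array log2 ratio of 2 enzymes of a step (vertical axis), shifted so that the mean of the 6 ad lib arrays is 0 in each panel; points are arrays ordered by replicate number and bars are mean ± SD of 6 arrays. The Lpin1 to Lpin2 groups do not overlap, with a mean difference of -1.09, while in the Gpam to Gpat3 and Dgat1 to Dgat2 panels 1 food removed array, replicate 4, lies among the ad lib arrays.

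The arrays lie on a single chip, and position and label nearly coincide. Arrays labelled food removed are at positions 1 and 3 to 7, and those labelled ad lib at position 2 and positions 8 to 12. The ad lib array at position 2 therefore sits between food removed replicates 1 and 2. There Gpam was 9.76, well below its neighbours at 11.44 and 11.49, whereas Lpin1 was 10.82 against 10.55 and 10.68, a smaller step in the direction of its label. With position as a covariate Lpin1 differed by -0.83 (SE 0.30, adjusted p = 0.407 from limma) and Gpam by 1.10 (SE 0.44, adjusted p = 0.475), and the number of probes called on the whole chip went from 301 to 32. The 2 labels share a stretch of the chip only around position 2.

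**Figure D4:**
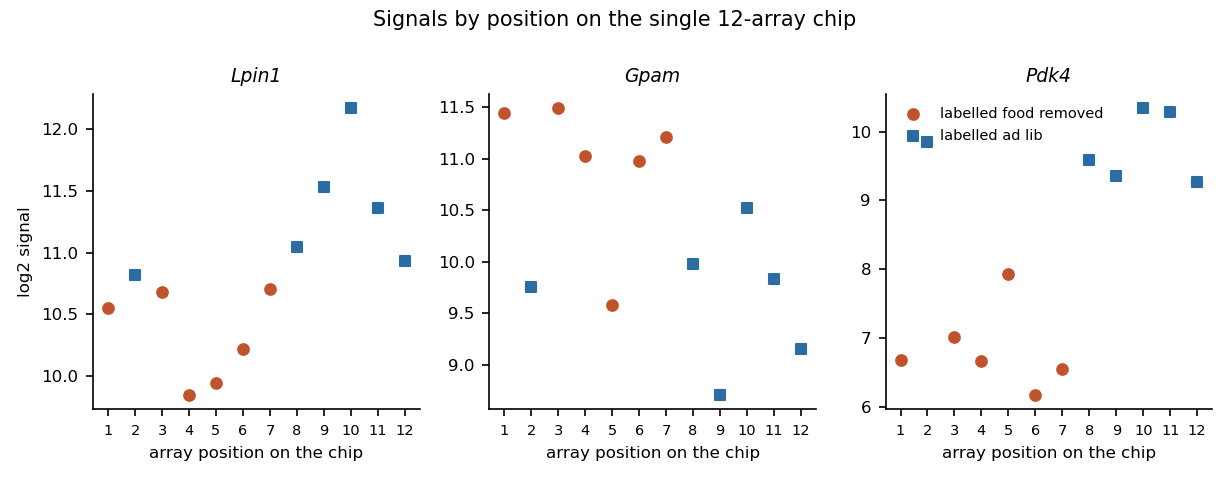
Log2 signal (vertical axis) of Lpin1, Gpam and Pdk4 against the array's position on the chip (horizontal axis, 1 to 12), circles for the food removed label and squares for the ad lib label. At position 2 the ad lib array has Gpam at 9.76 and Pdk4 at 9.85, with the ad lib arrays of positions 8 to 12, and Lpin1 at 10.82, the lowest of its label.

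Genes around the pathway were counted in 6 lists, chosen with earlier results of these data known. Of 42 tested genes, 2 were called lower and none higher by limma, and 8 had an unadjusted p under 0.05, 4 in each direction. Of all tested probes, 2.47% were called (1.42% lower) and 15.9% had an unadjusted p under 0.05 from limma. The median log2 difference of the 42 genes was 0.00, against -0.01 over all tested genes. Thus 40 of the 42 did not pass. Plin5, a droplet coat protein that ties droplets to mitochondria, was called in the list of droplet formation (1 of 7 tested). It was 7.53 to 8.47 in the arrays labelled food removed and 8.60 to 9.25 in those labelled ad lib, without overlap. Such a lack of overlap held for 2.5% of all tested probes. Plin5 differed by -0.87 (SE 0.17, adjusted p = 0.0159 from limma). Without ad lib replicate 5 it was -0.82 (adjusted p = 0.0509), and without the 4 arrays with epididymis markers -0.79 (adjusted p = 0.0765).

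In the phospholipid branch, which draws on the same diacylglycerol, 1 of 8 tested genes was called. This was Cept1, the choline and ethanolamine phosphotransferase, at 11.63 to 12.22 under the food removed label and 12.39 to 12.54 under the ad lib label, again without overlap. It differed by -0.46 (SE 0.11, adjusted p = 0.0427 from limma), and the call was lost in 11 of 12 fits that left out 1 array, in all but that without food removed replicate 4, with differences of -0.51 to -0.39 over the 12 fits and adjusted p up to 0.113. Without the 4 arrays with epididymis markers the difference was -0.39 (adjusted p = 0.134).

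No gene was called by limma in the 4 other lists. Among 8 tested genes of acyl-CoA supply the smallest p was that of Acsl4, an acyl-CoA synthetase with a preference for arachidonate, which differed by -0.62 (SE 0.17, adjusted p = 0.0699 from limma), and 3 genes of this list had an unadjusted p under 0.05. Plpp1, a phosphatidate phosphatase of another family than the lipins, had the smallest p of 7 tested genes of the other enzymes of the steps (-0.42, SE 0.21, adjusted p = 0.353). For the partners of the lipins, 9 tested, it was the deacetylase Hdac2 (0.23, SE 0.14, adjusted p = 0.467), and for the diacylglycerol kinases, which reverse the lipin step, it was Dgkz of 3 tested (0.18, SE 0.17, adjusted p = 0.673). In these last 3 lists no gene had an unadjusted p under 0.05. Of the 69 listed genes, 50 had a probe and 42 passed the filter, and Lpin3 had no probe.

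Markers of other cell types moved in part with the labels. Of 7 tested endothelial markers, 1 was called lower under the food removed label, Cldn5, a tight junction protein (-0.88, SE 0.22, adjusted p = 0.0482 from limma), and 6 of 7 had negative differences, with a summed signal of the list of 7401 to 14878 in the arrays labelled food removed and 12738 to 16974 in those labelled ad lib. For 6 tested macrophage markers none was called, all 6 differences were negative, and the summed signal was 6915 to 13021 and 10357 to 14807. The lowest sum of both lists was that of food removed replicate 3, the array with most epididymis markers. The next lowest of its label were 10098 (endothelial) and 9056 (macrophage). Of 7 tested fibroblast precursor markers 5 differences were positive and 2 negative, and of 4 smooth muscle markers 2 and 2, with none called. Epididymis markers, of which 6 passed the filter and none was called, summed to 10833 to 157550 and 10505 to 16741. Leptin, the adipocyte hormone, was the adipocyte marker called (1.55, SE 0.33, adjusted p = 0.0255), and the other 8 measured adipocyte markers did not pass. The part of these cells in the differences of Lpin1 and Gpam was not tested, apart from the fit without the arrays with epididymis markers.

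How the members varied from array to array was described after the group means were taken off, over the 12 arrays, which share a chip and a normalization. Among the ad lib arrays Lpin1 was highest (12.17) on replicate 4, with the lowest mean raw signal (418). It was lowest (10.82) on replicate 1, with the highest (1130), but also low (10.93) on replicate 6, at 706. The part of array brightness in the correlations was not tested. Lpin1 went with Dgat2 (Pearson r = 0.77, Spearman rho = 0.84, r = 0.88 without the 2 arrays farthest in Lpin1) and with Agpat2 (r = 0.73, rho = 0.72, r = 0.69). Gpam went with Agpat2 (r = 0.81, rho = 0.76, r = 0.70 without food removed replicate 4 and ad lib replicate 3). So arrays of a label with a high Lpin1 signal tended to have a high Dgat2 signal as well, although the 2 genes differed between the labels in opposite directions. The pairs given so far were those with the highest r among all pairs of members. For Gpam and Lpin1 r was 0.50 (rho = 0.63, r = 0.78 without food removed replicate 4 and ad lib replicate 3). Of 8582 other tested genes, the 5 most like Lpin1 in this respect were Zp1, Pgm1, Snrpd1, Akt2 and Mrpl37, with r from 0.95 to 0.96 and 0.91 to 0.94 without ad lib replicates 4 and 1. None of these 5 differed between the labels by more than 0.06 on the log2 scale, with adjusted p of 0.895 or more from limma.

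**Figure D5:**
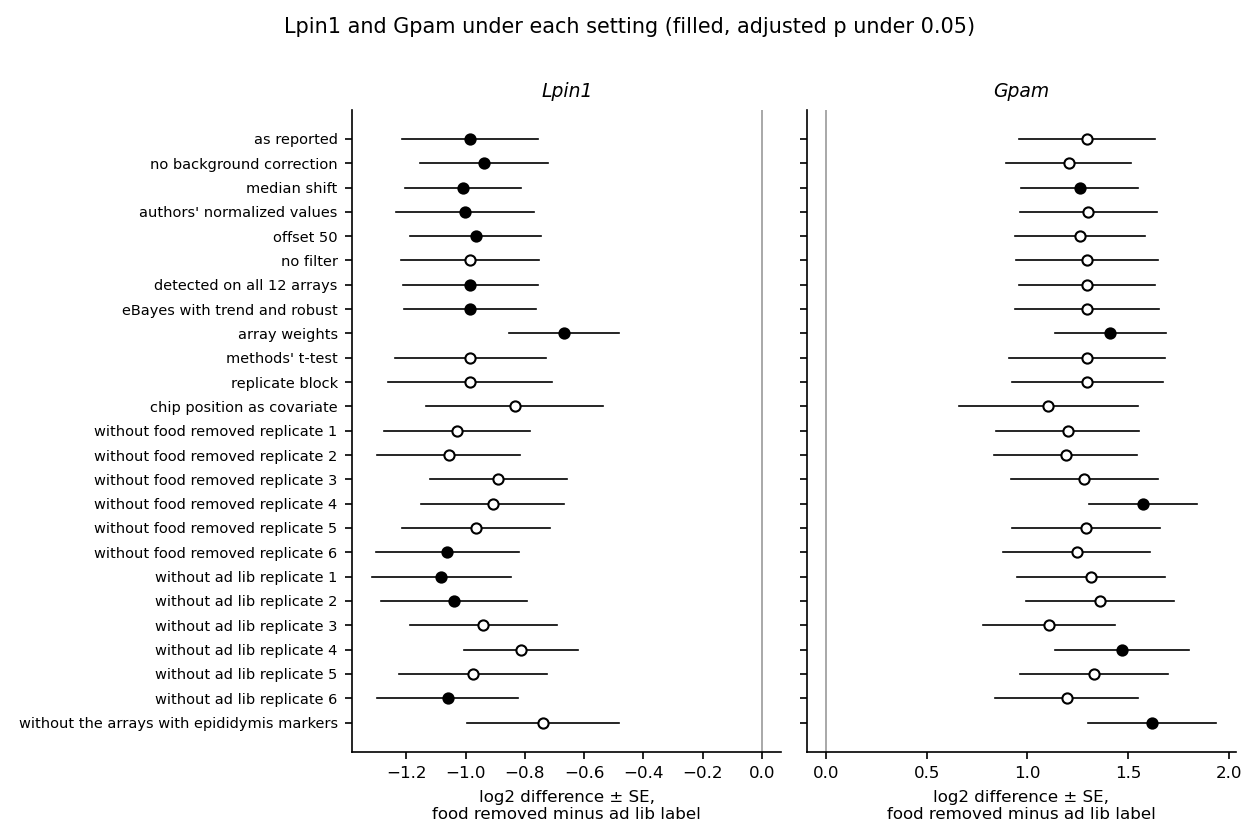
Log2 difference ± SE (horizontal axis, food removed label minus ad lib label) of Lpin1 and Gpam as reported and under each of 24 alternatives (rows), filled where the adjusted p was under 0.05. Lpin1 stays between -1.08 and -0.67 and Gpam between 1.10 and 1.62, and the filled points change from setting to setting.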

How the data were processed

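The members and the gene lists were chosen with earlier results of these data known. Samples were grouped by their titles, which also number the replicates. For each probe the authors deposited a raw signal intensity that was not normalized, a detection p-value computed by their software against negative control probes, and a count of beads with the standard error over them. A second deposited table holds the authors' normalized signal intensity on a linear scale, which came from a cubic spline in Illumina software (GenomeStudio in the processing notes), and was used as an alternative. Illumina's own test was not run.

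Raw intensities were corrected for background, quantile normalized and put on a log2 scale with neqc (offset 16) of limma 3.58.1 in R 4.3.3. Probes with detection p under 0.05 on at least 6 of 12 arrays (12196 of 22523) entered lmFit and eBayes (two-sided, p-values adjusted by Benjamini-Hochberg over all of them). The platform annotation gives 1 symbol to 13793 probes and none to 8730. Where a gene had several probes, the brightest on average stands for it. A difference of quantile-normalized signals is relative to the other probes, and the offset shrinks the fold change of dim probes. The precision is set by the number of arrays. The script was checked on simulated data.

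Named genes were every member, each listed gene that passed, the gene with the smallest p in a list with none, and the 5 genes most like each called member. Other settings tried were signals without background correction, an offset of 50, a median shift in place of quantiles and the authors' values. Further ones were no filter, detection on all 12 arrays, a robust eBayes trend, weights for arrays and an unpaired t-test as in the general statistics of the methods. The last were a replicate block, a covariate for chip position and an adjusted p under 0.01. Each array was also left out, and so were the 4 arrays with epididymis markers together. Promoter windows came from RefSeq, and where on its transcript a probe lies is not given in the sources used here.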

Additional observations from a re-analysis of the deposited data

Results flagged for a closer look

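Gpam in food removed replicate 4 stood apart from the other arrays of its label, at a log2 signal of 9.58 against 10.98 to 11.49 in the other 5. The gap was 0.735 of the range of the 6 arrays, above the critical value of Dixon's ratio for 6 values. It was the only case among 30 sets of 6 arrays examined (9 members and 6 pairs under each label), and chance alone gives about 1 in 20.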

How the results depend on the processing

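Under the alternatives the differences of Lpin1 and Gpam kept their sign throughout, whereas most calls did not. As reported, 301 probes, 1 member and 2 genes of the related lists were called. These counts were 103, 2 and 0 with a median shift, 840, 2 and 4 with array weights, 178, 0 and 0 with the replicate number as a block, 32, 0 and 0 when chip position was a covariate, and 98, 0 and 0 at an adjusted p under 0.01. Without a filter and with the methods' t-test 0 members were called by either test, and without the 4 arrays with epididymis markers 1 gene of the lists was called, Cds1, which had not been called before, while Cept1 and Plin5 were not. Leaving out 1 array gave 157 (ad lib replicate 5) to 483 (food removed replicate 4) probes, with 180 to 187 without food removed replicate 1, 2, 5 or 6, 0 to 1 members and 0 to 3 list genes. The t-test gave 230 probes and 0 members after adjustment. At an unadjusted p under 0.01 it gave 781 probes and 2 members, Gpam and Lpin1. The array methods apply this cutoff to results of Illumina software, together with a false discovery rate and a minimum signal. The unpaired t-test comes from the paper's general statistics, so these counts do not stand for the paper's array test.

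Gpam was called with a median shift (1.26, adjusted p = 0.0468 from limma), with array weights (1.41, 0.00762) and without the arrays with epididymis markers (1.62, 0.0219), and was 1.11 to 1.57 with 1 array left out. Lpin1 was not called without a filter (-0.98, adjusted p = 0.0759), by the methods' t-test (-0.98, 0.0935), with the replicate block (-0.98, 0.154), with chip position (-0.83, 0.407) or without the arrays with epididymis markers (-0.74, 0.176), and was -1.08 to -0.81 with 1 array left out. The cause of these losses was not tested. Gpat3 reversed with array weights (0.061) and chip position (0.097), Lpin2 with chip position (-0.022), and Agpat3 (0.034) was -0.032 to 0.093 with 1 array left out, all without a call.

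Of the pairs, Agpat1 to Agpat2 passed with a median shift (-0.53, adjusted p = 0.0390 from the exact permutation test). With the replicate block the 3 called pairs were 1.37 (Gpam to Gpat3), -1.09 (Lpin1 to Lpin2) and -0.47 (Dgat1 to Dgat2) and none passed, and without the 4 arrays they were 1.69, -1.02 and -0.66 and none passed, in designs that allow few assignments. With 1 array left out the ranges were 1.13 to 1.68 for Gpam to Gpat3, -0.58 to -0.41 for Dgat1 to Dgat2, -0.69 to -0.44 for Agpat1 to Agpat2, -0.40 to -0.22 for Agpat1 to Agpat3 and 0.14 to 0.30 for Agpat2 to Agpat3. Same-numbered arrays correlated between -0.41 and 0.128 after group means were removed, and 0 of 6 matched best with their own number. The profiles thus showed no likeness by number. They cannot show whether same-numbered rats were handled together, and the block is given as a check only. Every member has a single probe, so another choice of probe could not be run. Signal over background limits Gpat3, Agpat1 and Lpin2.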
